A study of Homo sapiens with 6 samples.

Results

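The expression of 10 genes encoding S100 proteins and annexins was examined in MDA-MB-231 breast cancer cells with and without a short hairpin RNA against Ror1. The genes were S100A2, S100A4, S100A6, S100A8, S100A9, S100A10, S100A11, ANXA1, ANXA2 and ANXA5, that is 7 S100 genes and 3 annexin genes. Their rows were found by symbol, without a rule on their values, and each was found as 1 of the 57445 rows of the deposited expression table. MDA-MB-231 is an established human cell line of triple-negative breast cancer. All cells had been infected with a pGIPZ lentivirus and selected with puromycin as stable lines. The control cells carried the shCTL vector, and the other cells carried the shROR1 vector (called shRor1 here). Each condition was sequenced as 3 libraries, and nothing in the sample descriptions states that these came from separate infections or cultures, so the p-values measure the spread between these libraries, which may be technical. Only 1 hairpin against Ror1 was sequenced, so its effect on Ror1 and any other effect of the same hairpin cannot be told apart. The sample descriptions call the control an empty vector and the publication calls it a non-silencing shRNA. The control columns carry the word DMSO in their header and the shRor1 columns do not. If only the control cells received DMSO, its effect and that of the hairpin cannot be told apart.

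S100 proteins are small calcium-binding proteins that usually act as dimers. On binding calcium they expose a surface that docks onto other proteins inside the cell, and several are also released and signal through receptors such as RAGE and TLR4. Annexins bind acidic phospholipids of cell membranes in the presence of calcium, and take part in membrane repair, vesicle traffic and the organisation of the cortical actin. Both families meet in fixed pairs. S100A10, which no longer responds to calcium, binds as a dimer to the N-terminus of ANXA2, and S100A11 binds to the N-terminus of ANXA1. The S100A10 and ANXA2 complex at the cell surface is known as a docking place for plasminogen and its activator. S100A4 and S100A6 have long been studied in invasive tumour cells, while S100A8 and S100A9 form calprotectin, the abundant calcium-binding protein of neutrophils and monocytes.

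The stretch of ANXA2 that makes the pairing with S100A10 possible is short. The first coding exon of ANXA2, exon 2 of its transcript, is 48 bases long, lies at chr15:60678227-60678274 on the minus strand of GRCh37, and encodes the N-terminus that holds the S100A10 contact. It is shown beside the same stretch of the processed pseudogenes ANXA2P2 (chr9:33624272-33624319, plus strand) and ANXA2P3 (chr10:66585329-66585376, plus strand), because a read of 50 bases must be divided between copies where they are alike. Capitals mark bases that differ from ANXA2.
ANXA2: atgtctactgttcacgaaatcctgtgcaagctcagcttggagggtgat
ANXA2P2: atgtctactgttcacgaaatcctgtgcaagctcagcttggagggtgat
ANXA2P3: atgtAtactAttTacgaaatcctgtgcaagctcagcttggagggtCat
ANXA2P2 had 0 differences from ANXA2 in these 48 bases and ANXA2P3 had 4, while ANXA2P1, a further copy, did not contain this stretch.

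The promoters of these genes also fell into visibly different kinds. As examples, the 250 bases before the transcription start are shown for the gene with the highest level (ANXA2), for S100A6, for ANXA1 and for S100A8, a gene listed at 0 in every library. The sequences are from RefSeq on GRCh38.p14, a different build from the expression table, and are given 5′ to 3′ on the strand of the gene. Capitals mark the pair CG and the word TATAAA. ANXA2 lies at chr15:60397987-60398236 (minus strand), S100A6 at chr1:153535992-153536241 (minus strand), ANXA1 at chr9:73151615-73151864 (plus strand), and S100A8, for which 1 of 3 RefSeq starts is shown, at chr1:153391074-153391323 (minus strand).
ANXA2: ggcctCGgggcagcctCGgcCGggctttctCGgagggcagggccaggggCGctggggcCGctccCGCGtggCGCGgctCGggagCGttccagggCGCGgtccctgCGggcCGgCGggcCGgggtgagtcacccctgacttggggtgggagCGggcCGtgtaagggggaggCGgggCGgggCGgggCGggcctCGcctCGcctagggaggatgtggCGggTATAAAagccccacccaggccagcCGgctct
S100A6: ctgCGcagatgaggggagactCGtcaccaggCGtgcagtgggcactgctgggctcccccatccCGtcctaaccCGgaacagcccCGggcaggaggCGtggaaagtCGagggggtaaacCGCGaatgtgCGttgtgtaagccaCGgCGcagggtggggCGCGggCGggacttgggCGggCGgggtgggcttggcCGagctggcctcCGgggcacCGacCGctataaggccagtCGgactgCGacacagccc
ANXA1: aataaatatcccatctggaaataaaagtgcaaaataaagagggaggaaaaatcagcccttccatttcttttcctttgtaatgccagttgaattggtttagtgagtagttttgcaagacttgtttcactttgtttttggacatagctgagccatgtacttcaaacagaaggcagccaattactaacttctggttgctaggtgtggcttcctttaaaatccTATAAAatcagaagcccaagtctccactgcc
S100A8: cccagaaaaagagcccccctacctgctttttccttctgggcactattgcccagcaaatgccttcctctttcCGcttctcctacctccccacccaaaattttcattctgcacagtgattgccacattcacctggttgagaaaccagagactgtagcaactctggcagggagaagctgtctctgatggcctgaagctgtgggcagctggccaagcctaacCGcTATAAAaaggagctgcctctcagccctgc
The S100A6 promoter is dense in CG pairs and without TATAAA, the ANXA2 promoter has both, the ANXA1 promoter has no CG pair at all, and the S100A8 promoter has few.

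The values are TPM, a relative abundance of transcripts, a unit that corrects for transcript length and makes every library add up to the same amount, so levels can be compared between genes, while sequencing depth is lost. The 6 libraries listed between 16036 and 17033 genes at 1 TPM or more. Libraries are called the first, the second and the third after the order of their columns, and no label ties a position in one condition to the same position in the other. ROR1, the targeted gene, was listed at 15.42, 13.49 and 20.56 TPM in the shCTL libraries, against 9.34, 11.93 and 14.85 TPM in those with shRor1. Thus 2 of 3 shRor1 libraries lay below all shCTL libraries, and the log2 fold change was -0.43 ± 0.20 (SE, n = 3 and 3, adjusted p = 0.984, limma). Leaving out single libraries moved it from -0.26 (the third of shCTL left out) to -0.58 (the third of shRor1 left out), and it was -0.27 when the first of shRor1 was left out. These values are RNA. The publication shows the knockdown by western blot of Ror1 protein and reports lower RhoA and JNK phosphorylation in the knockdown cells. After removal of the difference between conditions, the third shCTL and the third shRor1 library stood apart from the other 4 on the leading component, which held 40.8% of the remaining variance. In bulk RNA, fewer cells with a transcript and less of it per cell cannot be told apart.

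Markers of the line were examined first. VIM, CD44, AXL, SPARC and ZEB1, genes of the mesenchymal state known for MDA-MB-231, summed to 3387 to 3696 TPM in shCTL and 3423 to 3856 TPM in shRor1. ESR1 and PGR, the hormone receptor genes of luminal tumours, did not exceed 0.21 TPM in any library. ERBB2 (26.55 to 34.9 TPM) and EPCAM (12.58 to 15.8 TPM) of the same list were expressed. GATA3 (3.83 to 4.69 TPM) and FOXA1 (3.72 to 5.45 TPM) were low. CDH1 was listed at 0.8 to 1.22 TPM in shCTL and 1.36 to 1.47 TPM in shRor1. Its conditions did not overlap, as was so for 7.78% of all tested genes (log2 fold change 0.27, adjusted p = 0.984, limma). The 7 luminal markers together summed to 50.4 to 56.6 TPM in shCTL and 52.7 to 61.8 TPM in shRor1.

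The 10 genes ran from among the most abundant transcripts of this line to genes listed at 0. ANXA2 stood alone at the top with a mean of 3219 TPM over the 6 libraries (range 2994 to 3404), and ranked 22 among all genes in shCTL. A group of 5 genes followed, made up of ANXA5 (mean 881.5 TPM), S100A6 (749.6), S100A10 (653.8), ANXA1 (582.6) and S100A11 (528.1). S100A2 (24.8 TPM) and S100A4 (5.68 TPM) lay far below, and S100A9 and S100A8 were at or next to 0. Of the 9 pairs of neighbours in this order, 4 were separated in that the lowest library of the upper gene exceeded the highest library of the lower gene. These were ANXA2 over ANXA5, S100A11 over S100A2, S100A2 over S100A4, and S100A4 over S100A9. The neighbours among the 5 genes of the middle group overlapped in their ranges, although within a library ANXA5 was above S100A6 in 6 of 6 and S100A6 above S100A10 in 6 of 6.

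**Figure D1:**
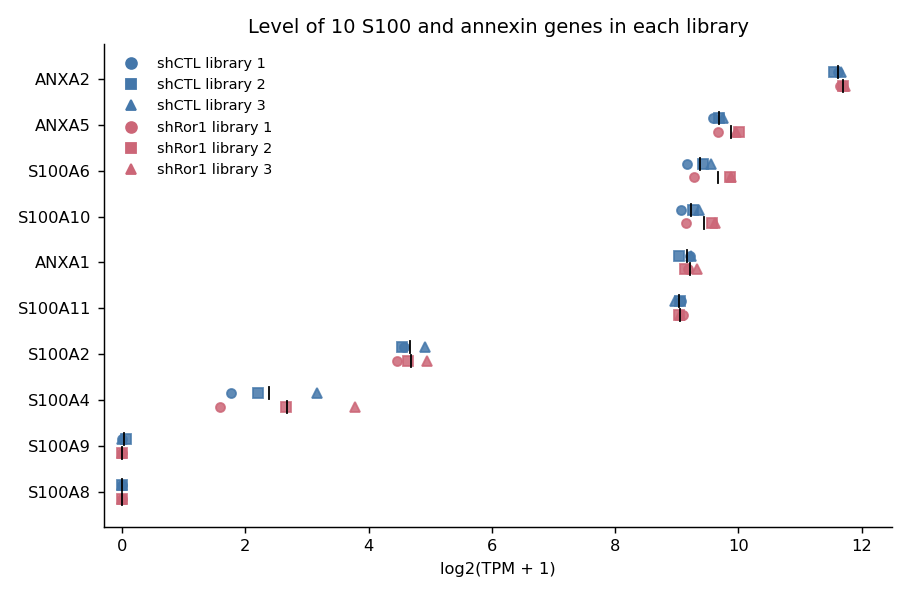
Level of each of the 10 genes on the log2(TPM + 1) scale (x axis), with 1 point for each of the 6 libraries, coloured by condition, and a black line at the mean of the 3 libraries. ANXA2 is at the top, 5 genes lie together between 499.3 and 1026 TPM, S100A2 and S100A4 are lower and widely separated, S100A4 has the widest scatter, and S100A9 and S100A8 lie at 0.

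Together the 10 genes took between 0.618% and 0.734% of all TPM, a share of polyA RNA by the sample descriptions, although the publication names a kit for total RNA. Their sum was 6347 ± 270.5 TPM in control cells (SD, n = 3) and 6943 ± 516.2 TPM in shRor1 cells (SD, n = 3), a difference within the reach of the spread (exact two-sided permutation test, p = 0.2, where 0.1 is the smallest p that 3 against 3 libraries allow). ANXA2 alone held 58.9% to 61.3% of the TPM of all 13 listed annexins. S100A6, S100A10 and S100A11 held 82.8% to 85.7% of the TPM of all 21 listed S100 genes.

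No member of the set passed the test between shRor1 and shCTL. Of the 10 genes, 8 passed the filter of 1 TPM in at least 3 libraries and were tested among 16554 genes. All 8 were higher in shRor1, with a median log2 fold change of 0.14, while 67.0% of all tested genes were higher and their median was 0.054. With median ratio scaling, 5 of the 8 members were higher and the median of all tested genes was -0.017. The number of members with an adjusted p under 0.05 was 0, against 0% (0 genes) of all tested genes in limma. The publication, which fitted counts with edgeR, reports 2 genes at a false discovery rate under 0.05 for this comparison, neither of them a member. The number of members with an unadjusted p under 0.05 was 0 of 8, against 2.85% of all tested genes (472 genes). In no member were the libraries of the 2 conditions without overlap, against 7.78% of all tested genes (1288 genes). Fold changes are given on the log2(TPM + 1) scale, which understates the change of low genes.

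**Figure D2:**
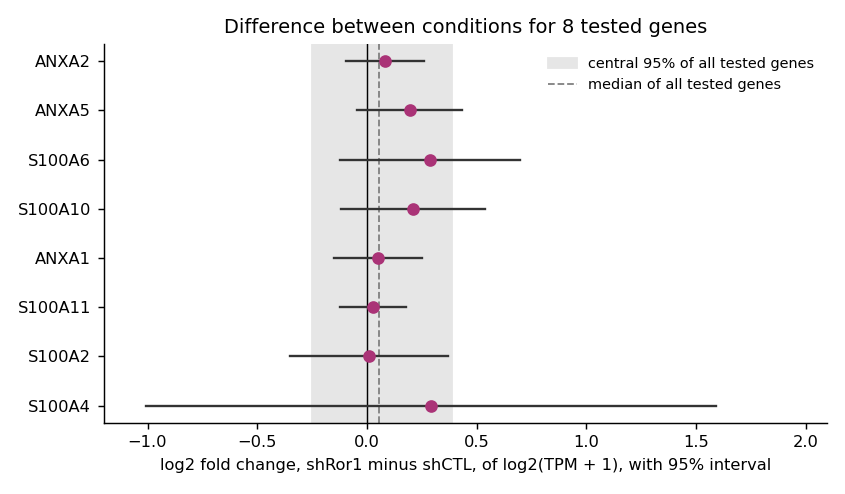
Log2 fold change of shRor1 minus shCTL (x axis, of log2(TPM + 1)) for the 8 tested genes, with 95% intervals from limma. The grey band is the central 95% of all tested genes (-0.25 to 0.39), the dashed line is their median (0.054), all 8 intervals include 0, and the interval of S100A4 is the widest.

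ANXA2, the partner of S100A10 and a membrane-binding protein of the cell cortex (ENSG00000182718.12, chr15:60639333-60695082, minus strand, GRCh37), was listed at 3133.65, 2994.15 and 3254.1 TPM in shCTL. In shRor1 it was listed at 3219.21, 3308.54 and 3403.9 TPM. The shRor1 libraries 2 and 3 lay above all shCTL libraries and the first one did not. The log2 fold change was 0.083 ± 0.076 (SE, n = 3 and 3, 95% interval -0.094 to 0.26, adjusted p = 0.984, limma; exact permutation p = 0.2), and it was 0.002 with median ratio scaling of the libraries and 0.15 with quantile normalization.

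S100A10, the S100 protein of that complex (ENSG00000197747.4, chr1:151955391-151966335, minus strand), was listed at 536.04, 616.63 and 659.52 TPM in control cells, and at 563.99, 756.51 and 789.98 TPM in shRor1 cells. Again 2 of 3 shRor1 libraries were above every shCTL library, while the first shRor1 library was the second lowest of all 6. The log2 fold change was 0.21 ± 0.14 (95% interval -0.12 to 0.54, adjusted p = 0.984, limma; exact permutation p = 0.3, n = 3 and 3). Both genes of the complex could thus be set against each other within each library. The ratio of S100A10 to ANXA2 transcripts was 0.171, 0.206 and 0.203 across shCTL, with 0.175, 0.229 and 0.232 across shRor1 (exact permutation p = 0.5, n = 3 and 3). The transcript of the annexin was therefore in excess in all 6 libraries.

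ANXA2 is the member for which the assignment of reads matters most. Of the 12772 different words of 50 bases in its transcripts, 603 (4.72%) occurred in transcripts of other genes, 575 of them in ANXA2P2. ANXA2P2 was 98.4% identical to the coding sequence of ANXA2, with a longest identical run of 221 bases, while ANXA2P1 (93.8%) and ANXA2P3 (92.2%) were less alike. The words were pooled over the annotated transcripts of ANXA2, whereas ANXA2P2 aligned with the coding sequence over its 1020 bases. The 4.72% is therefore a share of pooled words and not of reads. The share of shared words within the coding sequence was not tested and may be much higher. ANXA2P2 (ENSG00000231991.3) was listed at 1.84, 1.34 and 2.18 TPM for the 3 shCTL libraries and at 2.21, 2.42 and 3.42 TPM for the 3 shRor1 libraries. Its conditions did not overlap, unlike those of ANXA2 itself, at levels near the filter of 1 TPM. Among all tested genes 7.78% did not overlap. The log2 fold change of ANXA2P2 was 0.40 ± 0.18 (adjusted p = 0.984, limma, and exact permutation p = 0.1, n = 3 and 3). ANXA2P1 lay between 0.8 and 1.4 TPM and ANXA2P3 between 0.08 and 0.17 TPM. The 3 copies summed to at most 4.99 TPM, or 0.147% of ANXA2 in the same library, and with them added the log2 fold change of ANXA2 was 0.083. How many of these reads came from ANXA2 was not tested.

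ANXA5, the annexin used in the laboratory to stain phosphatidylserine on dying cells (ENSG00000164111.10, chr4:122589101-122618150, minus strand), was listed at 772.63, 823.37 and 863.13 TPM in shCTL. In shRor1 it was listed at 812.55, 1026.45 and 990.78 TPM. It had the smallest p-value of the 8 tested members, with a log2 fold change of 0.20 ± 0.10 (95% interval -0.044 to 0.44, unadjusted p = 0.0953, adjusted p = 0.984, limma; exact permutation p = 0.3, n = 3 and 3). The first shRor1 library lay inside the shCTL range, and without it the log2 fold change was 0.30.

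S100A6, or calcyclin, a protein that binds CACYBP and is abundant in proliferating and invasive cells (ENSG00000197956.5, chr1:153507075-153508720, minus strand), was listed at 576.15, 687.11 and 748.65 TPM in shCTL. In shRor1 it was listed at 617.41, 925.67 and 942.58 TPM. The pattern was that of S100A10 and ANXA5, with the second and the third shRor1 library above all controls and the first one between them. The log2 fold change was 0.29 ± 0.18 (95% interval -0.12 to 0.70, adjusted p = 0.984, limma; exact permutation p = 0.3, n = 3 and 3), and it was 0.49 without the first shRor1 library and 0.18 without the third. A long noncoding RNA on the opposite strand shares 37 of its exon bases with S100A6 and was listed at 1.49 to 2.39 TPM.

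ANXA1 is a target of glucocorticoids whose N-terminal peptide acts on formyl peptide receptors (ENSG00000135046.9, chr9:75766781-75785309, plus strand). It was listed at 594.45, 525.93 and 596.71 TPM in the shCTL libraries, against 577.68, 558.51 and 642.54 TPM in those with shRor1. The conditions overlapped, and the log2 fold change was 0.051 ± 0.086 (95% interval -0.15 to 0.25, adjusted p = 0.985, limma; exact permutation p = 0.6, n = 3 and 3). With median ratio scaling of the libraries it was -0.03.

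S100A11, the partner of ANXA1 (ENSG00000163191.5, chr1:152004982-152020383, minus strand), was the steadiest of the set. It was listed at 537.19, 532.98 and 499.34 TPM in control cells, and at 545.8, 526.18 and 527.18 TPM in shRor1 cells, and its highest library exceeded its lowest by 1.09-fold. The log2 fold change was 0.028 ± 0.065 (95% interval -0.12 to 0.18, adjusted p = 0.986, limma; exact permutation p = 0.6, n = 3 and 3), and it was -0.053 with median ratio scaling. The ratio of S100A11 to ANXA1 transcripts ran from 0.82 to 1.01, so this pair was near equality where the S100A10 and ANXA2 pair was not. Of its 599 words of 50 bases, 12 (2.0%) occurred in another gene, and its 7 listed processed pseudogenes summed to at most 0.47 TPM. The 3 pseudogenes with a value above 0 were S100A11P1, S100A11P2 and S100A11P6. The 8 other members shared no word of 50 bases with another gene.

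S100A4, also called metastasin and a binding partner of nonmuscle myosin heavy chain MYH9 (ENSG00000196154.7, chr1:153516089-153522612, minus strand), varied most. It was listed at 2.42, 3.63 and 7.97 TPM across shCTL, with 2.01, 5.31 and 12.74 TPM across shRor1. The spread within shCTL was 3.29-fold and within shRor1 6.34-fold, and the highest and the lowest of all 6 values were both shRor1 libraries. The means were 4.67 ± 2.92 TPM (SD, n = 3) and 6.69 ± 5.50 TPM (SD, n = 3), and the log2 fold change was 0.29 ± 0.56 (95% interval -1.01 to 1.59, adjusted p = 0.986, limma; exact permutation p = 0.8). Its sign rested on single libraries, since it was 0.84 without the first and -0.26 without the third shRor1 library.

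S100A2, which was first described as a gene lost in breast tumours (ENSG00000196754.6, chr1:153533584-153540366, minus strand), was listed at 22.77, 22.22 and 29.06 TPM for the 3 shCTL libraries and at 21.03, 23.82 and 30.0 TPM for the 3 shRor1 libraries. The highest and the lowest value were again shRor1 libraries. The log2 fold change was 0.01 ± 0.15 (95% interval -0.35 to 0.37, adjusted p = 0.996, limma; exact permutation p = 1.0, n = 3 and 3), and its sign changed under quantile normalization (-0.037) and median ratio scaling (-0.067), as well as without the third shRor1 library (-0.125).

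S100A8 (ENSG00000143546.5, chr1:153362508-153363549, minus strand) was listed at 0 in all 6 libraries. S100A9 (ENSG00000163220.10, chr1:153330330-153333499, plus strand) was listed at 0.05 TPM in the second shCTL library and at 0 in the other 5. Neither was tested. No exact word of 50 bases of their transcripts occurred in transcripts of other genes. Matches with differing bases were not counted, and the part of read division in these values was not tested. No limit of detection is given, because the TPM carry no depth. The mapped read totals that the publication states for these libraries cannot be tied to single columns. Markers of myeloid cells, which carry both proteins in the body, were near 0 as well, with 8 markers summing to 2.05 to 2.23 TPM in shCTL and 1.63 to 2.56 TPM in shRor1. Keratinocytes also make S100A8 and S100A9 when irritated, and their markers KRT1 and IVL were listed at 0. KRT10 made up nearly all of the keratinocyte sum, which was 17.5 to 22.7 TPM in shCTL and 20.9 to 22.7 TPM in shRor1.

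Some members varied alike across libraries and others did not. Of the 8 tested members, 6 (75.0%) were highest in the third library of both conditions, the pair that stood apart, against 5554 of the 16554 tested genes (33.6%). In the same way 6 members (75.0%) had their lowest shRor1 value in the first shRor1 library, against 41.0% of tested genes. Over the 6 libraries, log2(TPM + 1) of S100A6 followed that of S100A10 with Pearson r = 0.998 and that of ANXA5 with r = 0.978. S100A2 followed S100A4 with r = 0.946. ANXA1 had lower values with S100A6 (r = 0.268), S100A10 (r = 0.298) and ANXA5 (r = 0.244). High values are common over 6 libraries. Among 8482 tested protein-coding genes, 223 had r above 0.9 with ANXA2 and 598 with S100A4. S100A11 ran against all other 7 tested members, with r from -0.757 to -0.218. These are descriptions over 6 libraries that hold both conditions and share their scaling, and the part of the libraries that stood apart in them was not tested. Without the third library of either condition, the log2 fold changes were 0.27 for S100A6, 0.18 for S100A10, 0.091 for ANXA2 and 0.20 for ANXA5, an alternative chosen after seeing the data.

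**Figure D3:**
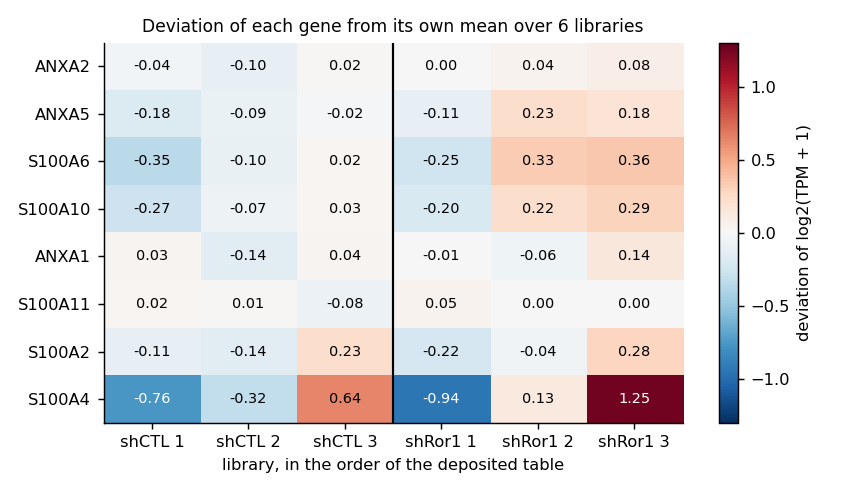
Deviation of log2(TPM + 1) of each tested gene from its own mean over the 6 libraries, with libraries in columns (3 shCTL, then 3 shRor1) and red above and blue below the mean. S100A4 runs from -0.94 to 1.25, S100A6, S100A10 and ANXA5 share a pattern in which the first library of each condition is low, and S100A11 stays within 0.08 of its mean.

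The genes with the pattern most like that of ANXA2 and S100A4 were sought among 8482 tested protein-coding genes with a mean of at least 10 TPM. For ANXA2 they were ELF1 (r = 0.998, 16.02 to 20.47 TPM), PPP4R2 (r = 0.997) and ZBTB44 (r = 0.988), and 223 genes had r above 0.9. For S100A4 they were ZFYVE19 (r = 0.999), JUP (r = 0.998) and ACSS2 (r = 0.996), and 598 genes had r above 0.9. JUP encodes plakoglobin of cell junctions and had a spread of the same kind as S100A4, with 5.85, 8.55 and 18.03 TPM in the shCTL libraries, against 5.66, 12.96 and 29.72 TPM in those with shRor1.

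Most S100 genes lie on chromosome 1, and 17 of them were listed there, with S100A7L2 annotated as an unprocessed pseudogene. Their levels changed from gene to gene along this order. S100A10 and S100A11 at one end were at 499.3 TPM or more in every library. The next 6 S100 genes in this order (S100A9, S100A12, S100A8, S100A7A, S100A7L2 and S100A7) were at or next to 0. These do not adjoin S100A11, which ends at base 152020383, while S100A9 starts at 153330330. Other genes lie between them, FLG among these (5.99 to 8.35 TPM). S100A6 followed with 749.6 TPM, its neighbour S100A5 had at most 0.49 TPM, and S100A4, S100A3 and S100A2 were low. Of the 17 genes, 6 had a mean of at least 10 TPM, 3 lay between 1 and 10 TPM, and 8 were under 1 TPM. S100A3 lies within the span of S100A4 on the same strand without sharing exon bases, and it was listed at 3.72, 3.32 and 6.21 TPM in control cells, and at 3.04, 3.71 and 7.27 TPM in shRor1 cells. The ratio of S100A4 to S100A3 ran from 0.65 to 1.75, so this pair of nested genes differed in how far it moved between libraries.

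**Figure D4:**
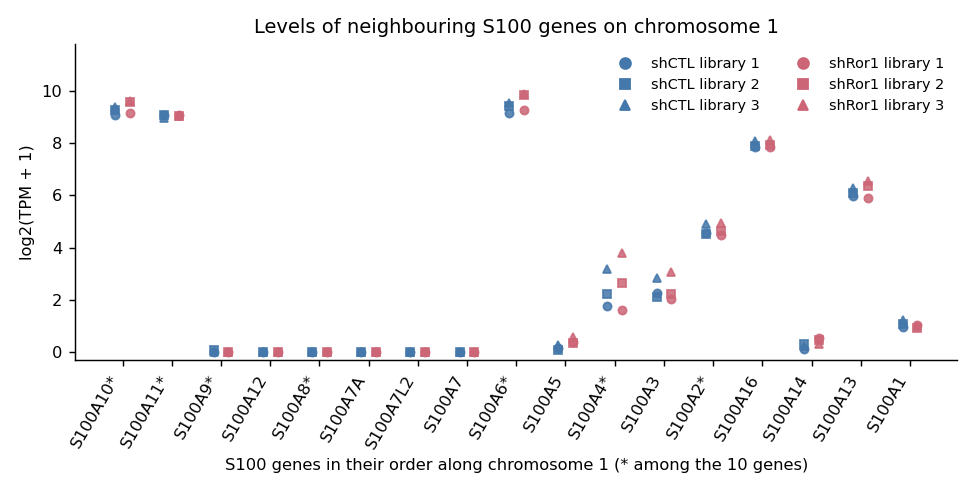
Level (y axis, log2(TPM + 1)) of the 17 S100 genes of chromosome 1 in gene order, 1 point for each library, with the members of the set marked by an asterisk. Among the S100 genes shown, a run of 6 at 0 or nearly 0 lies between S100A11 and S100A6, which are both among the highest.

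The promoter windows of RefSeq (300 bases, from 250 before to 50 after the start, GRCh38.p14) were counted for all 10 members, which have 13 windows. CpG is the pair CG on 1 strand, and it is the site of DNA methylation. Over 35116 windows the median was 14 CpG, and 11.5% held TATAAA on either strand. Windows of genes with a mean of at least 100 TPM in these cells had a median of 27 CpG, and those of genes under 0.1 TPM had a median of 5. ANXA5 (36 CpG), S100A10 (32), ANXA2 (32), S100A6 (31) and S100A11 (22) were above the median of all windows. S100A4 (8), S100A2 (5 and 4 in its 2 windows), S100A9 (5) and S100A8 (2 in each of 3 windows) were below it. ANXA1 broke this order, with 0 CpG and a level of 582.6 TPM. TATAAA was found in ANXA1, ANXA2 and S100A4 at -31, in S100A9 at -29 and in S100A8 at -29 from the start shown above, and in no window of S100A2, S100A6, S100A10, S100A11 or ANXA5. The word TGANTCA, to which AP-1 factors are known to bind and which reads the same on both strands, was found at -127 in ANXA2 and at -52 in S100A2, against 7.7% of all windows. These are matches of letters, and neither binding nor methylation was measured here.

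**Figure D5:**
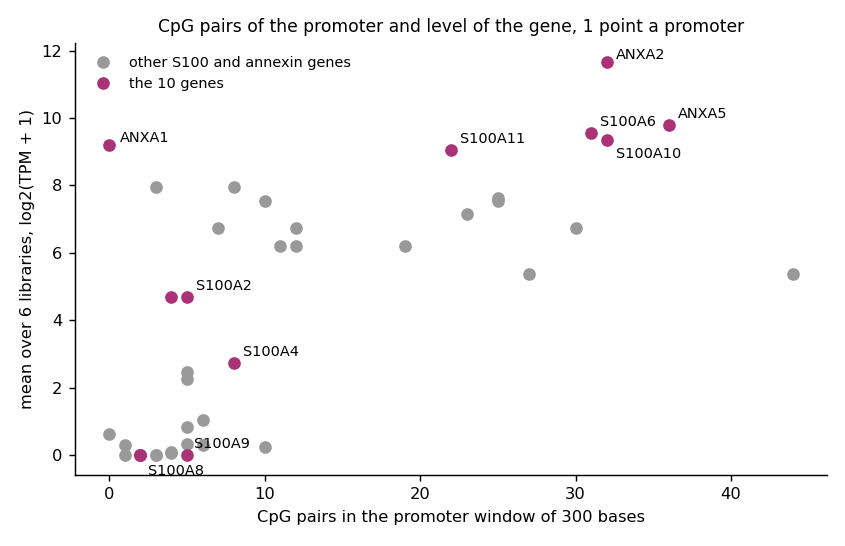
Number of CpG pairs in the promoter window of 300 bases (x axis) against the mean level of the gene over 6 libraries (y axis, log2(TPM + 1)), with 1 point for each RefSeq promoter of an S100 or annexin gene. The members of the set are in purple and labelled once each, 5 of them lie at the upper right, and ANXA1 lies at the upper left with 0 CpG, above the grey points of S100A16 (3 and 8 CpG, 249.3 TPM).

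The remaining members of both families gave 0 calls. Of 14 other S100 genes, 5 were tested, with 4 higher, 1 lower and a median log2 fold change of 0.033, and 4 were listed at 0 throughout. The abundant ones were S100A16 (230.34, 238.19 and 273.39 TPM across shCTL, with 229.61, 243.64 and 280.36 TPM across shRor1) and S100A13 (62.53, 67.4 and 76.41 TPM, and 59.04, 80.77 and 92.18 TPM). Their log2 fold changes were 0.021 ± 0.10 and 0.15 ± 0.16 (adjusted p of 0.984 or more, limma), and that of S100A13 was 0.011 without the third and 0.33 without the first shRor1 library. Of 10 other listed annexins, 5 were tested, with 4 higher, 1 lower and a median of 0.01. ANXA3 was the lower one, with 194.8, 212.76 and 204.51 TPM for the 3 shCTL libraries and 184.62, 197.63 and 195.97 TPM for the 3 shRor1 libraries (log2 fold change -0.081 ± 0.067). ANXA4 (0.076), ANXA6 (0.01), ANXA7 (0.01) and ANXA11 (0.035) had log2 fold changes near 0, and each changed sign under at least 1 alternative. Of 7 fused-type S100 genes, the long filaggrin-like relatives of the same chromosome, 2 were tested and 0 called, with log2 fold changes of 0.005 and -0.045.

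The receptors of released S100 proteins and annexins were unequal in level. BSG, a receptor for S100A9 also known as CD147, was listed at 734.36, 687.78 and 825.99 TPM in the shCTL libraries, against 764.56, 776.83 and 857.61 TPM in those with shRor1 (log2 fold change 0.096 ± 0.090). MCAM (log2 fold change -0.012) and ALCAM (log2 fold change 0.038), cell adhesion molecules named as further receptors, were listed between 46.74 and 103.16 TPM. TLR4 was listed at 7.57, 7.65 and 7.43 TPM in control cells and 7.47, 9.19 and 11.15 TPM in shRor1 cells (log2 fold change 0.25 ± 0.14, adjusted p = 0.984, limma). AGER, the gene of RAGE, did not exceed 3.25 TPM, and the formyl peptide receptor genes FPR1, FPR2 and FPR3 did not exceed 0.48 TPM. Of the 9 receptors 5 were tested, 4 were higher, 1 was lower and 0 were called.

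Among 12 intracellular partners of S100 proteins and annexins, 11 were tested, 7 were higher, 4 were lower and 0 were called, with a median log2 fold change of 0.096. S100PBP, a nuclear protein that binds S100P, was the 1 gene of these lists with an unadjusted p under 0.05 (limma). Among all tested genes that share was 2.85% (472 genes). It was listed at 14.54, 13.57 and 16.03 TPM in control cells, and at 20.33, 17.55 and 19.63 TPM in shRor1 cells. All 3 shRor1 libraries of S100PBP lay above all shCTL libraries, and 7.78% of all tested genes had conditions without overlap. The log2 fold change was 0.36 ± 0.10 (95% interval 0.12 to 0.60, unadjusted p = 0.00856, adjusted p = 0.984, limma; exact permutation p = 0.1, n = 3 and 3), so it did not pass the correction over all genes. The direction was higher in shRor1 in all 16 alternatives run for it, which reuse the same libraries. S100P itself, the target of S100PBP, was low at 2.3, 2.81 and 2.28 TPM across shCTL, with 1.81, 9.28 and 4.27 TPM across shRor1 (log2 fold change 0.63 ± 0.41).

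None of the other tested partners had an unadjusted p under 0.05. MYH9, the myosin bound by S100A4, was listed at 265.44, 277.3 and 291.2 TPM for the 3 shCTL libraries and at 300.27, 300.95 and 290.31 TPM for the 3 shRor1 libraries (log2 fold change 0.097 ± 0.065). The log2 fold changes of CACYBP (-0.075) and SUGT1 (-0.016), which bind S100A6, and of PDCD6 (0.03), which binds ANXA11, lay on both sides of 0 and changed sign when single libraries were left out. AHNAK (0.11), a scaffold held by the S100A10 and ANXA2 complex, and MYOF (0.096), a membrane repair protein, had log2 fold changes above 0. SRC (-0.05), the kinase that phosphorylates ANXA2, and DLC1 (-0.032), a partner of S100A10, had log2 fold changes below 0, which turned without the second shRor1 library (0.053 and 0.045). Their adjusted p-values were 0.984 or more in limma.

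The plasminogen system, which meets the S100A10 and ANXA2 complex at the cell surface, had 4 tested genes among the 6 reported here, with 3 higher, 1 lower and 0 called. PLAT, the tissue activator that binds ANXA2, was listed at 53.63, 43.48 and 109.9 TPM in the shCTL libraries, against 56.14, 56.44 and 132.52 TPM in those with shRor1. The third library of each condition held more than the other 2 together, and the log2 fold change (0.23 ± 0.42) turned to -0.17 without the third shRor1 library. PLAU and PLAUR had log2 fold changes of 0.13 and -0.018, and their conditions overlapped. SERPINE2, an inhibitor of these proteases, did not overlap, as was so for 7.78% of all tested genes. It had 23.53, 23.24 and 20.38 TPM in control cells and 25.67, 28.15 and 24.15 TPM in shRor1 cells (log2 fold change 0.21 ± 0.097, unadjusted p = 0.0682, adjusted p = 0.984, limma, and exact permutation p = 0.1, n = 3 and 3). PLG, the gene of plasminogen itself, did not exceed 0.63 TPM.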

How the data were processed

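RNA of 3 shCTL and 3 shRor1 libraries was sequenced by the authors as single reads of 50 bases. STAR was used by them for alignment to GRCh37 with the Ensembl annotation, and abundance was estimated with RSEM (version 1.2.5 per the labels). The deposited values are TPM, although the table is called expected counts, so a count test could not be used. Each column summed to 1000000 within 1. The columns name the condition but no replicate, and 0 per-sample columns were left unused.

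A gene was kept when 3 or more libraries reached 1 TPM (16554 of 57445). Values were fitted as log2(TPM + 1) with limma 3.58.1 in R 4.3.3, following the mean-variance trend, and p-values were adjusted by Benjamini-Hochberg at 0.05. Single genes were also compared with an exact two-sided permutation test, whose smallest p is 0.1. On simulated data of 16554 genes with 200 changed, 0.3% were recovered at a log2 fold change of 0.5, 70.75% at 1 and 95.15% at 2. The mean number of false calls per run, over 10 runs at each of these 3 sizes, was 0, 5.1 and 10.4. The leading component held 40.8% of the remaining variance of the sequenced libraries. Whether the simulated rates hold for those libraries was not tested.

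The members and gene lists were chosen with earlier results of these data known. Named genes are the 10 members, ROR1, other S100 and annexin genes and genes of the receptor, partner and plasminogen lists with a mean of at least 10 TPM in either condition, processed pseudogenes above 0, and for the highest and the most variable member the 3 genes with the most similar pattern. S100P, S100A3, S100A5 and its neighbours on chromosome 1, FLG, AGER, TLR4, ERBB2, EPCAM, GATA3, FOXA1, CDH1, the formyl peptide receptors and PLG fall outside this rule and were named after their values were seen. ANXA8 and LOR were not matched to a row, and 1 gene of the plasminogen list is not reported here. Coordinates, exons and words of 50 bases came from GENCODE 44 on GRCh37, and promoters from RefSeq on GRCh38.p14.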

Additional observations from a re-analysis of the deposited data

How the results depend on the processing

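Of 17 alternatives, 15 gave 0 genes past an adjusted p of 0.05 in limma, and leaving out the third shRor1 library, or the third library of both conditions (an alternative chosen after seeing the data), gave 1. Leaving out single libraries gave between 0 and 1. No member and no gene of the S100, annexin, receptor, partner and plasminogen lists was called in any of them. The cell type marker lists were not part of this count. Unadjusted p-values under 0.05 were found for 472 genes, a count that ran from 203, after rescaling over protein-coding genes, to 1720, without the first shRor1 library. It was 1363 without the expression filter, 227 at a mean of at least 5 TPM, 859 with array weights, 1060 when the leading residual component entered the model, 289 without the first shCTL library and 278 without the second. Of the 472 genes 382 were higher in shRor1, against 200 of 371 with quantile normalization and 200 of 398 with median ratio scaling. The cause was not tested.

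Of 32 named genes, 14 kept their direction in every alternative, among them S100A6 (0.18 to 0.49), S100A10 (0.12 to 0.36), ANXA2 (0.002 to 0.15) and ANXA5 (0.12 to 0.30), on the log2 scale. Median ratio scaling reversed S100A2 (-0.067), S100A11 (-0.053), ANXA1 (-0.03), S100A16 (-0.059), ANXA4 (-0.003), ANXA6 (-0.069), ANXA7 (-0.069), ANXA11 (-0.045), ALCAM (-0.042) and PDCD6 (-0.05). Quantile normalization reversed S100A2 (-0.037) and ANXA7 (-0.003). Rescaling over protein-coding genes reversed S100A2, ANXA6 and ANXA7 (-0.001 each), and array weights ANXA7 (-0.006). Leaving out the third library of both conditions reversed S100A2 (-0.007), ANXA6 (-0.008), ANXA11 (-0.018) and MCAM (0.041). Leaving out 1 library reversed S100A2 (-0.125 to 0.129), S100A4 (-0.26 to 0.84), S100A11 (-0.006 to 0.047), ANXA1 (-0.009 to 0.092), S100A16 (-0.06 to 0.095), ANXA4 (-0.04 to 0.17), ANXA6 (-0.072 to 0.075), ANXA7 (-0.02 to 0.046), ANXA11 (-0.172 to 0.189), MCAM (-0.132 to 0.146), ALCAM (-0.023 to 0.1), CACYBP (-0.15 to 0.017), SUGT1 (-0.095 to 0.059), PDCD6 (-0.007 to 0.087), SRC (-0.102 to 0.053), DLC1 (-0.124 to 0.045), PLAT (-0.173 to 0.624) and PLAUR (-0.094 to 0.036).

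No paired analysis was possible because replicate numbers are missing from the table's headers. The TPM hold no depth, and the mapped reads stated in the publication cannot be tied to columns, so no limit of detection is given for genes listed at 0. With 3 simulated libraries a condition, 0.3% of changes of 0.5 on the log2 scale were recovered, and whether this rate holds for the sequenced libraries was not tested.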
